A study of Solanum lycopersicum with 12 samples.

Results

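The comparison sets 2 tomato genotypes side by side under the same salt stress: 3 arrays of PI365967 and 3 arrays of Moneymaker, each from plants held for 5 h in 200 mM NaCl. These 6 arrays were chosen by their labels from the 12 arrays of the series. Moneymaker is a cultivated tomato, and PI365967 is known from the study as a salt-tolerant wild tomato of the species Solanum pimpinellifolium, although GEO lists every sample as Solanum lycopersicum. The other 6 arrays, 3 of each genotype, came from plants kept for 5 h in the same nutrient solution with 0 mM NaCl, and they served here to show which differences were there without salt. Each array held labelled RNA pooled from 3 whole plants with 6 true leaves, grown in sand and moved to aerated, diluted Hoagland solution, and the 3 arrays of a group were separate pools of plants that the labels call biological replicates. No genetic modification is named for either genotype, and each genotype is 1 line, so a difference between them cannot be assigned to any single locus.

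Salt stress reaches a plant first as a loss of water uptake and then as a build-up of sodium in the tissue. Plants answer with abscisic acid, ethylene and jasmonate signalling, with compatible solutes and protective proteins, and with proton pumps that drive sodium out of the cytosol through exchangers. Genotypes can differ in these systems before any stress is applied or in how strongly they answer it, and a comparison made under salt alone holds both kinds of difference.

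A level below is the log2 of the deposited intensity plus an offset of 16 after quantile normalization, and a difference is the mean level in PI365967 minus that in Moneymaker, so that 1 is a doubling. Differences were tested with limma over all 10101 tomato probe sets, with Benjamini-Hochberg adjustment, and a probe set was called at an adjusted p under 0.05. A group was taken to be at background where all of its 3 arrays lay at or below the brightest of 23 control probe sets without a tomato target, a limit of 4.76 to 5.39 by array. Of the probe sets, 702 carried a gene name, 207 a locus number only, and 9192 no name, so that most of the differences below belong to probe sets that cannot be named here. Median intensities ran from 332.8 to 633.2 over the 12 arrays, replicates correlated at 0.991 to 0.995, and PI365967 salt arrays correlated with Moneymaker salt arrays at 0.943 to 0.954.

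Under salt, 4961 of the 10101 probe sets were called between the genotypes, which is 49.1%. Of these, 2686 (26.6%) were higher in PI365967 and 2275 (22.5%) were lower. At least a 2-fold difference was reached by 422 called probe sets (4.18%) on the higher side and by 538 (5.33%) on the lower side. At 4-fold the sides were 54 higher against 141 lower, and at 16-fold they were 7 against 23. The median difference over all probe sets was 0.03, and the median standard error was 0.11. How well each genotype's transcripts match the probes was not measured, so a lower transcript level and a poorer match cannot be told apart, and because whole plants were used, fewer cells of a type and less RNA per cell cannot be told apart either.

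Many of the differences were there without salt. The unstressed comparison, which shares no array with the one under salt, called 3718 probe sets (36.8%). Of the probe sets higher in PI365967 under salt, 1353 were also higher without salt, which is 50.4% of the calls under salt and 69.9% of the unstressed calls. On the lower side 1231 were shared, 54.1% of the calls under salt and 69% of the unstressed ones. All 30 called probe sets that differed by 16-fold or more under salt were called the same way without salt. The difference of salt effects, the genotype difference under salt minus that without salt, passed the test for 1337 probe sets (13.2%), of which 621 (6.15%) were higher and 716 (7.09%) lower. Higher calls were 46.4% of these, against 35.4% with the arrays centred on their medians and 60.3% with no normalization between arrays. Across probe sets the genotype differences under and without salt had a Pearson r of 0.774 and a Spearman rho of 0.634, given as a description, since probe sets are not independent replicates.

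**Figure D1:**
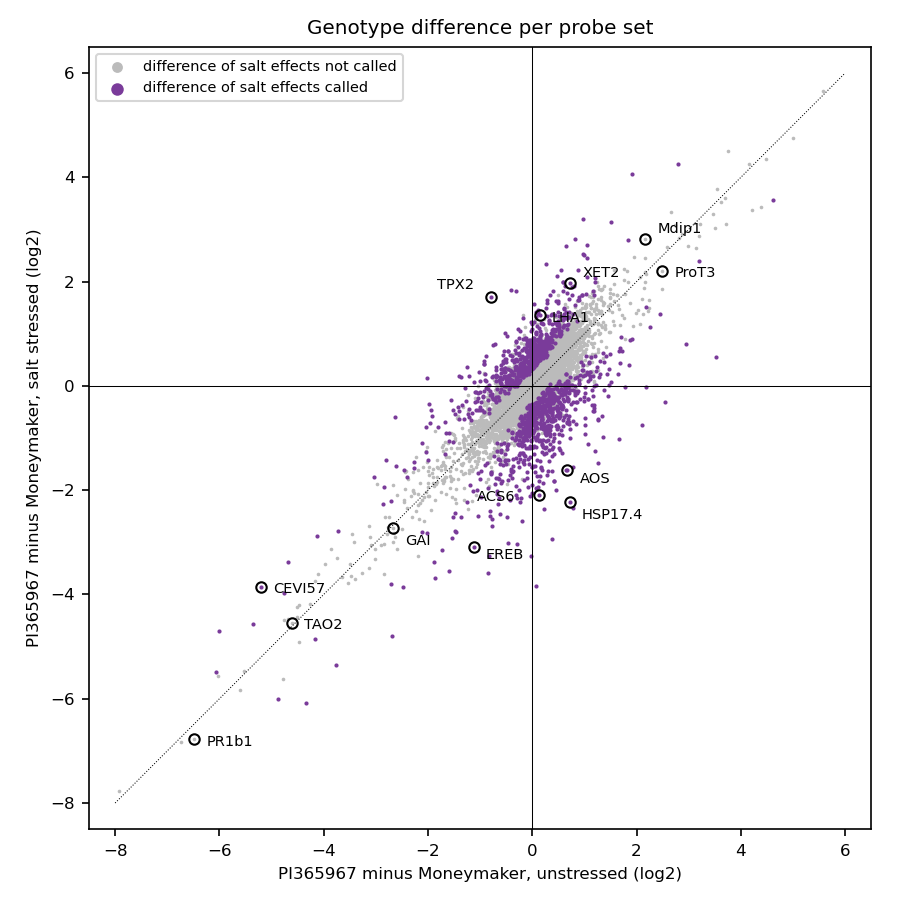
Genotype difference of each of the 10101 probe sets, PI365967 minus Moneymaker on the log2 scale, without salt (horizontal axis) and under salt (vertical axis); the dotted line marks equal differences, and purple points are the 1337 probe sets whose difference of salt effects was called. PR1b1, TAO2, GAI and ProT3 lie near the line, while TPX2, LHA1, ACS6, AOS and HSP17.4 lie far from it.

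The 12 named genes that were highest in PI365967 under salt differed by 1.58 to 2.82 on the log2 scale. The largest difference was that of Mdip1, which read 11.50, 11.14 and 11.29 in the 3 PI365967 salt arrays and 8.35, 8.67 and 8.46 in the 3 Moneymaker salt arrays. Every PI365967 array lay above every Moneymaker array, and the difference was 2.82 ± 0.17 (SE), a 7.05-fold change with an adjusted p of 3.19e-07. Mdip1 was also higher without salt, by 2.16 (adjusted p = 3.13e-06). Non-overlap by itself was common, since the 3 arrays of one genotype lay wholly above or below the 3 of the other for 57.4% of all probe sets.

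ProT3, which encodes a transporter of the compatible solute proline, was near the detection limit in Moneymaker and clearly above it in PI365967. Its salt levels were 7.66, 7.48 and 7.58 in PI365967 and 5.19, 5.33 and 5.57 in Moneymaker, with no overlap, a difference of 2.21 ± 0.15 (adjusted p = 9.20e-07). The difference without salt was as large, at 2.49, and the difference of salt effects was not called (adjusted p = 0.442). MT3, a metallothionein-like protein that binds metal ions, read 10.41, 10.36 and 10.52 against 8.07, 8.33 and 8.26, and it was higher in PI365967 by 2.21 ± 0.14 (adjusted p = 5.72e-07). LOX1.1, a lipoxygenase, read 10.24, 10.40 and 10.52 against 8.52, 8.76 and 8.28 and was higher by 1.87 ± 0.12 (adjusted p = 5.70e-07). For MT3 and LOX1.1 the lowest PI365967 array stood more than 1 log2 unit above the highest Moneymaker array, and both were higher without salt too, by 1.81 and 1.34.

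ER-SHSP, a small heat shock protein of the endoplasmic reticulum that keeps unfolded proteins from clumping, read 7.79, 8.05 and 7.95 in PI365967 and 6.37, 5.77 and 5.67 in Moneymaker under salt. The arrays did not overlap, although 1 Moneymaker array stood higher than the other two, and the difference was 1.99 ± 0.23 (adjusted p = 3.76e-05). TBG4, a beta-galactosidase that trims cell wall polysaccharides, read 12.31, 12.00 and 12.06 against 10.46, 10.84 and 10.30 and was higher by 1.59 ± 0.19 (adjusted p = 4.49e-05). The remaining genes of the 12 were XET2, TPX2 and AMT1-2, described below, and LePro1, matriochka and BR1 at 1.76, 1.59 and 1.58. Without salt TPX2 was not called higher, and the unstressed call of XET2 was lost when some single arrays were left out, as given below.

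The 12 named genes that were lowest in PI365967 under salt reached much larger differences, from -2.37 down to -6.78. PR1b1, a pathogenesis-related protein of the PR-1 family that marks activated defence, was among the brightest transcripts of salt stressed Moneymaker, at 12.86, 12.81 and 12.91. In salt stressed PI365967 it read 5.22, 6.01 and 7.01, far below Moneymaker in every array, though these 3 arrays spread over more than 1 log2 unit. The difference was -6.78 ± 0.51 (adjusted p = 1.53e-06), and it was -6.48 without salt. The dimmer PR1b1 probe set, Les.3408.1.S2_at, was at background in PI365967 and read 5.86, 5.25 and 5.19 in Moneymaker, at least 1.28-fold lower in PI365967 against the background limit (adjusted p = 0.00044).

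TAO2, an aldehyde oxidase of the enzyme family that makes abscisic acid from its aldehyde, was at background in PI365967, with levels of 4.40, 4.10 and 4.61 against 8.98, 8.92 and 8.85 in Moneymaker. Measured against the background limit it was at least 14.3-fold lower in PI365967 (adjusted p = 5.97e-09). The same holds for SSTLE1, a sesquiterpene synthase, at 4.15, 4.06 and 4.42 against 7.97, 6.29 and 8.16, at least 5.27-fold lower (adjusted p = 0.000153), and 1 of its Moneymaker arrays was well below the other two. help1 was likewise at background, at least 3.91-fold lower (adjusted p = 1.48e-07). Other aldehyde oxidases did not share the low level of TAO2. AO1 was higher in PI365967 by 0.56 under salt (adjusted p = 0.00127), and TAO3, at 0.12, was not called (adjusted p = 0.486).

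GAI, the tomato DELLA protein that restrains growth until gibberellin triggers its destruction, read 9.25, 9.30 and 9.35 in salt stressed Moneymaker and 6.35, 6.55 and 6.83 in salt stressed PI365967. Replicates lay close together, the groups were far apart, and the difference was -2.73 ± 0.15 (adjusted p = 1.71e-07). Without salt the difference was -2.67, and the difference of salt effects was not called (adjusted p = 0.894). CEVI57 read 11.05, 10.93 and 10.90 against 6.80, 6.55 and 7.97, a difference of -3.85 ± 0.28 (adjusted p = 1.15e-06). It was lower still without salt, at -5.20, and the gap between these values was called (adjusted p = 0.0441) but not with the replicate number as a block (adjusted p = 0.056).

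A pair of genes for defence at the protein level were also much lower in PI365967. pip1, a papain-like cysteine protease secreted during defence, read 12.54, 12.41 and 12.41 in Moneymaker and 8.48, 8.12 and 9.64 in PI365967. cathDInh, an inhibitor of the protease cathepsin D and a wound-response gene, read 9.93, 10.58 and 10.69 against 7.55, 6.74 and 5.95. The differences were -3.70 ± 0.35 and -3.65 ± 0.39 (adjusted p = 7.71e-06 and 2.14e-05), with no overlap in either gene and a wide spread among the PI365967 arrays of both. psi14A differed by -3.60 ± 0.25 (adjusted p = 8.29e-07). All 12 of the lowest genes were called lower without salt as well.

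**Figure D2:**
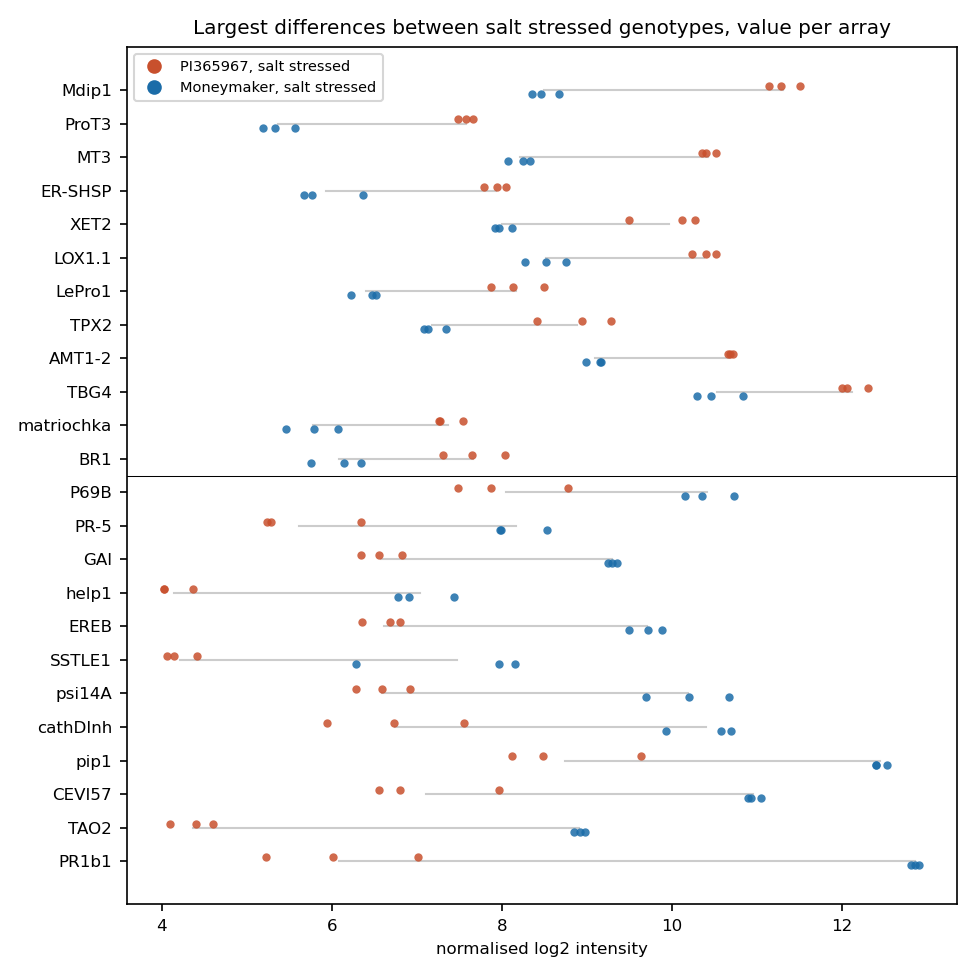
Normalized log2 intensity of each salt stressed array for the 12 named genes with the largest higher differences and the 12 with the largest lower differences in PI365967; each point is 1 array, the grey line joins the group means, and the horizontal line separates the higher from the lower genes. The PI365967 and Moneymaker points do not overlap for any of the 24 genes, which the choice of genes required, and the lower genes reach larger gaps, up to 6.78 for PR1b1.

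Pathogenesis-related proteins, the chitinases, PR-1, PR-4 and PR-5 proteins and subtilases that plants make against microbes, leaned to lower levels in PI365967 under salt. Of 15 probe sets, 8 were called lower and 2 higher, with a median difference of -1.04 against 0.03 over all probe sets. Of all probe sets 22.5% were called lower and 26.6% higher under salt, and the counts under salt of every list below are to be read against these shares. For counts without salt the shares over all probe sets were 17.7% lower and 19.2% higher. For the difference of salt effects they were 7.09% lower and 6.15% higher. Without salt 11 of the 15 pathogenesis-related probe sets were lower and 1 higher. P69B, a subtilisin-like protease, read 10.73, 10.35 and 10.15 in Moneymaker and 7.88, 7.48 and 8.78 in PI365967, which put PI365967 at -2.37 ± 0.32 relative to Moneymaker (adjusted p = 0.000113). PR-5, a thaumatin-like protein, was lower, at -2.54 (adjusted p = 0.000113) and PR-P2, of the PR-4 family, at -2.08 (adjusted p = 0.000119). The 2 members called higher were GLUII, a glucanase, at 0.22 (adjusted p = 0.0264), and TSI-1, at 1.37 (adjusted p = 0.000236).

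Ethylene genes had the most lower calls of any list by count, 51.2% of their probe sets. Signalling kinases and calcium sensors, at 52.6%, and pathogenesis-related proteins, at 53.3%, had larger shares in smaller lists. The ethylene list has 41 probe sets for synthesis, receptors, signalling and response factors. Under salt 21 were called lower in PI365967 and 5 higher, with a median of -0.29, against 22.5% lower and 26.6% higher of all probe sets. Without salt 10 were lower and 3 higher, against 17.7% and 19.2% of all. The difference of salt effects was lower for 11 and higher for 1, against 7.09% and 6.15% of all. ACS6, an isoform of ACC synthase, which makes the ethylene precursor, read 10.82, 10.16 and 10.26 in salt stressed Moneymaker and 7.91, 8.12 and 8.94 in salt stressed PI365967. Without salt it read 7.40, 7.30 and 7.70 and 7.72, 7.53 and 7.54, so that the genotypes overlapped there and were apart under salt. The difference under salt was -2.09 ± 0.25 (adjusted p = 4.18e-05), and that of salt effects was -2.22 ± 0.35 (adjusted p = 0.00222).

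Ethylene response factors bind the promoters of ethylene and pathogen responsive genes. For them, 11 probe sets were grouped by name after their values were seen. Of these 11, 8 were called lower in PI365967 under salt, against 22.5% of all probe sets. The 3 not called were those of JERF3 and ERF-H1 and the dimmer one of ERF3. Response factors are part of the ethylene list above, so these calls repeat part of its count. EREB, also known as TSRF1, read 9.89, 9.72 and 9.50 in salt stressed Moneymaker and 6.35, 6.69 and 6.81 in salt stressed PI365967, a difference of -3.09 ± 0.18 (adjusted p = 2.06e-07). It was already lower without salt, by -1.13, and the gap was wider under salt by -1.96 ± 0.25 (adjusted p = 0.000647). PTI5, named for its interaction with the Pto resistance kinase, read 11.85, 11.57 and 11.36 against 9.52, 9.40 and 9.69 under salt, and 8.92, 9.16 and 8.40 against 8.56, 8.75 and 9.16 without it. The unstressed groups overlapped, the salt groups did not, and the difference under salt was -2.06 ± 0.21 (adjusted p = 1.25e-05). PTI4, a further Pto interactor, differed by -1.80 ± 0.17 (adjusted p = 7.74e-06). On the other side were all 3 probe sets of ACO6, named as an ACC oxidase, the signal transducer EIN2 at 0.34 (adjusted p = 0.00567) and E8 at 0.61 (adjusted p = 0.00483).

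Of 18 probe sets of stress transcription factors, which comprise WRKY, NAC, bZIP and DREB genes, limma called 0 higher in PI365967 under salt and 7 lower, with a median of -0.38, and at an unadjusted p under 0.05 the counts were 0 and 9. Without salt 4 of them were higher and 2 lower, against 19.2% and 17.7% of all probe sets. The difference of salt effects was lower for 7 and higher for 0, against 7.09% and 6.15% of all. At an unadjusted p under 0.05 it was lower for 8 and higher for 0. NAC1 read 12.88, 12.69 and 12.71 in salt stressed Moneymaker and 11.36, 11.38 and 11.94 in PI365967, without overlap, a difference of -1.20 ± 0.15 (adjusted p = 5.26e-05). Its unstressed difference was 0.37 (adjusted p = 0.0685), and the difference of salt effects was -1.57 ± 0.21 (adjusted p = 0.000757). WRKYIId-1 had some of the tightest replicates, at 12.69, 12.65 and 12.51 against 11.32, 11.33 and 11.35, and differed by -1.28 ± 0.07 (adjusted p = 2.20e-07). DREB3 differed by -1.50 (adjusted p = 2.42e-06) and bZIP1 by -0.77 (adjusted p = 3.61e-05).

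Signalling kinases and calcium sensors had 10 of 19 probe sets called lower and 1 higher, with a median of -0.25, while without salt 3 were lower and 6 higher. MPK3, a stress-activated MAP kinase, has 3 probe sets, and all 3 were lower under salt. The brightest read 11.02, 10.83 and 10.59 in Moneymaker and 9.30, 9.31 and 9.36 in PI365967, with no overlap and a difference of -1.49 ± 0.14 (adjusted p = 6.30e-06). The others differed by -1.30 and -0.74 (adjusted p = 5.56e-06 and 0.00103). All 3 were also called in the difference of salt effects, at -1.42, -1.34 and -0.94.

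MKK4, a kinase that activates MAP kinases, was lower both under salt, at -1.38 on the log2 scale (adjusted p = 1.15e-06), and without it, at -1.03 (adjusted p = 1.43e-05). DGK1, a diacylglycerol kinase, was lower under salt at -1.12 ± 0.20 (adjusted p = 0.000687), against 0.34 without salt (adjusted p = 0.201). The member called higher was SNF4, a regulatory subunit of the energy-sensing SnRK1 kinase, which read 9.99, 9.81 and 9.54 in PI365967 and 8.69, 9.02 and 8.69 in Moneymaker. It was higher by 0.98 ± 0.14 (adjusted p = 0.000188), and without salt Moneymaker was at background.

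**Figure D3:**
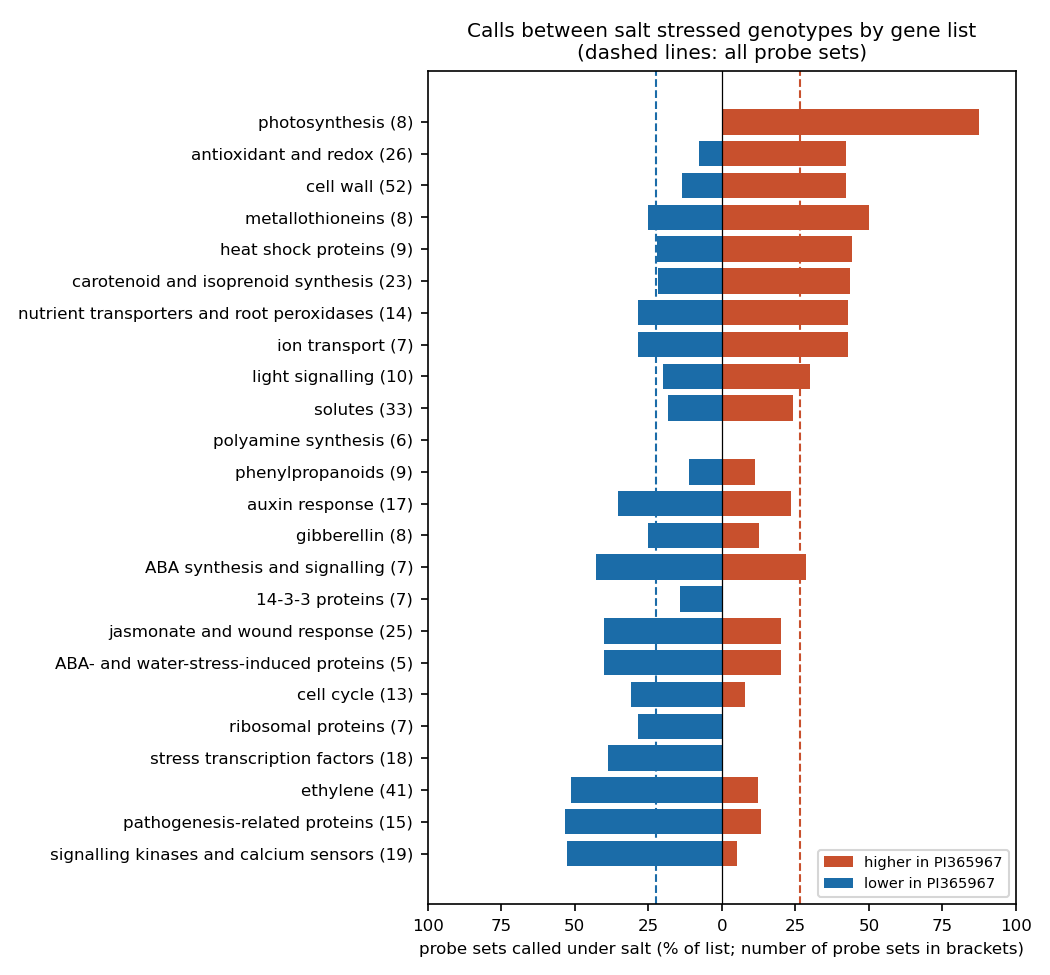
Share of each gene list's probe sets called higher (right) or lower (left) in PI365967 under salt, in percent, with the number of probe sets in brackets; lists with at least 5 probe sets are shown, and the dashed lines mark the shares over all probe sets, 26.6% higher and 22.5% lower. Photosynthesis reaches 87.5% on the higher side, and pathogenesis-related proteins, signalling kinases and ethylene genes pass 50% on the lower side.

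Genes of jasmonate synthesis and the wound response were called lower more often than higher, 10 against 5 of 25, with a median of -0.13, while without salt 7 were lower and 10 higher. AOS, the allene oxide synthase at the entry to jasmonate synthesis, read 11.14, 11.01 and 10.95 in salt stressed Moneymaker and 9.09, 9.34 and 9.81 in salt stressed PI365967. Without salt it read 5.72, 6.34 and 6.27 in Moneymaker and 6.72, 6.99 and 6.65 in PI365967, so the mean was higher in Moneymaker under salt and in PI365967 without it. The difference was -1.62 ± 0.19 under salt (adjusted p = 4.85e-05) and 0.68 without salt (adjusted p = 0.0179), and that of salt effects was -2.29 ± 0.27 (adjusted p = 0.000468). The unstressed call of AOS was lost without Moneymaker replicate 1, at 0.48 (adjusted p = 0.0707), without PI365967 replicate 2, at 0.58 (adjusted p = 0.067), and with no normalization between arrays, at 0.41 (adjusted p = 0.322). Wiv-1, a wound-induced invertase of the cell wall, was lower, at -1.56 under salt (adjusted p = 5.20e-05) and by nearly the same amount without it (-1.56).

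AOS was 1 of 16 named probe sets whose calls under and without salt pointed in opposite directions, out of 122 such probe sets in all (1.21%). In 12 of the 16 the call was higher in PI365967 without salt and lower under salt, but 1 of these, 20ox-3, was at background in both genotypes under salt. Both calls were kept with any 1 array left out for 8 of the 16, among them LysRS, AOX1a and TPX2, while AOS, 20ox-3, CIP2a, GBF4, LHA2, SPE4, THM16 and gtsatom lost a call. Besides AOS, 20ox-3 and TPX2 the 16 were picked after their values were seen, and the largest reversal among them was LysRS, from 1.25 without salt to -1.48 under salt (adjusted p of the difference of salt effects = 0.000368). AOX1a, an alternative oxidase of mitochondria, went from 0.82 to -0.44 (adjusted p = 7.98e-05).

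Photosynthesis genes were the list with the largest share of calls in one direction. Of 8 probe sets for light-harvesting proteins, plastocyanin and the photosystem II subunits, limma called 7 higher in PI365967 under salt and 0 lower (7 and 0 at an unadjusted p under 0.05), with a median of 0.54, and without salt 3 were higher. CAB5, a light-harvesting chlorophyll-binding protein, read 12.43, 12.29 and 12.24 in PI365967 and 11.03, 11.15 and 10.58 in Moneymaker, a difference of 1.40 ± 0.17 (adjusted p = 5.05e-05). PETE, the electron carrier plastocyanin, read 12.66, 12.57 and 12.50 against 11.19, 11.39 and 11.13, a difference of 1.34 ± 0.11 (adjusted p = 3.19e-06). Neither gene had overlapping arrays. PETE differed less without salt, by 0.51, and the gap between these values was called (adjusted p = 0.0064). PsbQ and PSBP, subunits of the oxygen-evolving complex, were higher by 0.67 and 0.59 (adjusted p = 6.78e-05 and 7.67e-05).

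Marker sums differed between the genotypes under salt and without it. The 4 matched markers of leaf or green tissue, which are all members of the photosynthesis list as well, summed to between 26738 and 28518 intensity units in the PI365967 salt arrays and between 15048 and 17745 in the Moneymaker salt arrays, and all 4 were called higher. The 5 matched root markers summed to 8597 to 9079 in PI365967 and 9737 to 11067 in Moneymaker, with 2 called higher and 1 lower. Although the root sum was lower in PI365967 under salt, the median difference of the root markers was 0.24. Without salt the leaf markers summed to 35571 to 37018 in PI365967 and 25774 to 31937 in Moneymaker. The root markers without salt summed to 11901 to 12635 in PI365967 and 13714 to 13993 in Moneymaker. Neither sum overlapped between the genotypes, under salt or without it. No leaf or root marker was at background in both genotypes under salt, and the part of tissue make-up in the results was not tested. No flower marker had a name on the array. The 25S ribosomal RNA control read 5.99, 6.44 and 7.36 in PI365967 and 7.14, 8.10 and 8.05 in Moneymaker, which overlap. One of the 3 ubiquitin control probe sets, AFFX-Le_Ubiquitin_3_at, read 10.20, 10.49 and 10.64 in PI365967 and 11.60, 11.32 and 11.51 in Moneymaker, a gap of -1.03 without overlap, and the other two ubiquitin controls were at -0.20 and -0.26. The part of these controls in the results was not tested.

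Cell wall genes leaned to higher levels in PI365967. Of 52 probe sets for expansins, xyloglucan transglycosylases, beta-galactosidases, cellulases and pectinases, 22 were called higher and 7 lower under salt, with a median of 0.23. Without salt 11 were higher and 8 lower, against 19.2% and 17.7% of all probe sets. The difference of salt effects was higher for 10 and lower for 1, against 6.15% and 7.09% of all. EXP1, an expansin, of the proteins that loosen the wall during growth, read 10.08, 9.75 and 9.86 in PI365967 and 8.41, 8.16 and 8.75 in Moneymaker under salt. Without salt it read 10.69, 10.61 and 10.47 and 10.37, 10.62 and 10.41, where the groups overlapped. The difference was 1.46 ± 0.14 under salt (adjusted p = 1.17e-05) and 0.12 without it (adjusted p = 0.564), and that of salt effects was 1.34 ± 0.20 (adjusted p = 0.00188).

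EXP5, a further expansin, showed the same pattern, at 10.30, 10.10 and 10.11 against 8.77, 8.79 and 9.03 under salt. Its difference was 1.31 ± 0.11 under salt (adjusted p = 2.52e-06) and -0.17 without salt (adjusted p = 0.24). XET2, a xyloglucan endotransglycosylase that cuts and rejoins wall polymers, read 10.27, 9.50 and 10.12 against 7.92, 7.97 and 8.12 under salt, a difference of 1.97 ± 0.25 (adjusted p = 6.39e-05). XET2 was higher by 0.72 without salt (adjusted p = 0.0376), a call lost without any 1 of 4 single arrays (adjusted p up to 0.131). Without Moneymaker unstressed replicate 3 that value was 0.45, and the call was also lost with an offset of 1 (adjusted p = 0.055) and with only the 6 unstressed arrays (adjusted p = 0.0633). The difference of salt effects was called (adjusted p = 0.0388) but not without any 1 of 9 single arrays (adjusted p up to 0.084). The fruit marker list shares TBG4 and Cel2 with the cell wall list, and its 5 matched genes summed to 4969 to 6056 in PI365967 and 1656 to 2273 in Moneymaker, with PG2 and 2A11 at background in both; that list's part in the result was not tested. All 3 probe sets of XTH16 were on the lower side, at -0.90, -0.73 and -0.67, each called.

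Ion transport had 7 probe sets, 3 higher and 2 lower. LHA1, a plasma membrane proton pump that powers ion transport, read 12.26, 12.17 and 11.94 in salt stressed PI365967 and 10.75, 10.90 and 10.66 in salt stressed Moneymaker. Without salt it read 10.81, 10.83 and 10.82 and 10.68, 10.73 and 10.64, a gap of 0.14 that was not called (adjusted p = 0.258). The difference under salt was 1.35 ± 0.09 (adjusted p = 7.20e-07), and that of salt effects was 1.21 ± 0.13 (adjusted p = 0.00027). SOS2, the kinase that activates the sodium exporter of the plasma membrane, was higher by 0.39 ± 0.08 (adjusted p = 0.00237), and by 0.28 without salt (adjusted p = 0.0218). LHA2, a further proton pump, was higher by 0.20 (adjusted p = 0.0304) and had been lower without salt (-0.22, adjusted p = 0.0248). LCA1, a calcium pump, was lower, at -0.87 (adjusted p = 4.29e-05). NHX1, which moves sodium into the vacuole, read 7.65, 7.45 and 7.52 in PI365967 and 8.09, 8.17 and 7.70 in Moneymaker. These levels came close without touching, and the difference of -0.45 ± 0.13 (adjusted p = 0.0135) lost its call without either of 2 Moneymaker salt arrays (adjusted p = 0.051 and 0.057). Of the aquaporins, Aqp2 was higher by 0.83 (adjusted p = 5.96e-05), and TIP, at 0.04, was not called (adjusted p = 0.845).

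Nutrient transporters and root peroxidases had 6 of 14 probe sets higher and 4 lower. TPX2, a peroxidase, changed sides with salt. Under salt it read 8.42, 9.29 and 8.95 in PI365967 and 7.13, 7.08 and 7.34 in Moneymaker, and without salt 9.57, 9.23 and 9.27 and 10.02, 10.20 and 10.20, with no overlap in either condition. The difference was 1.70 ± 0.18 under salt (adjusted p = 2.24e-05) and -0.79 without it (adjusted p = 0.00604), and that of salt effects was 2.49 ± 0.26 (adjusted p = 0.000268). AMT1-2, an ammonium transporter, read 10.66, 10.68 and 10.72 against 8.99, 9.16 and 9.15 under salt, with replicates close together. It was higher by 1.59 ± 0.10 (adjusted p = 3.94e-07), more than the 0.49 without salt (adjusted p of the gap = 0.0007). ST1, a sulphate transporter, was higher by 1.17 (adjusted p = 3.81e-05) and CEVI-1, a peroxidase, lower, at -1.01 (adjusted p = 0.000501). ST1 and CEVI-1 were called in the same directions without salt, at 1.39 and -0.98. The root markers' sum, given above, ran the other way from AMT1-2, which is itself 1 of them.

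**Figure D4:**
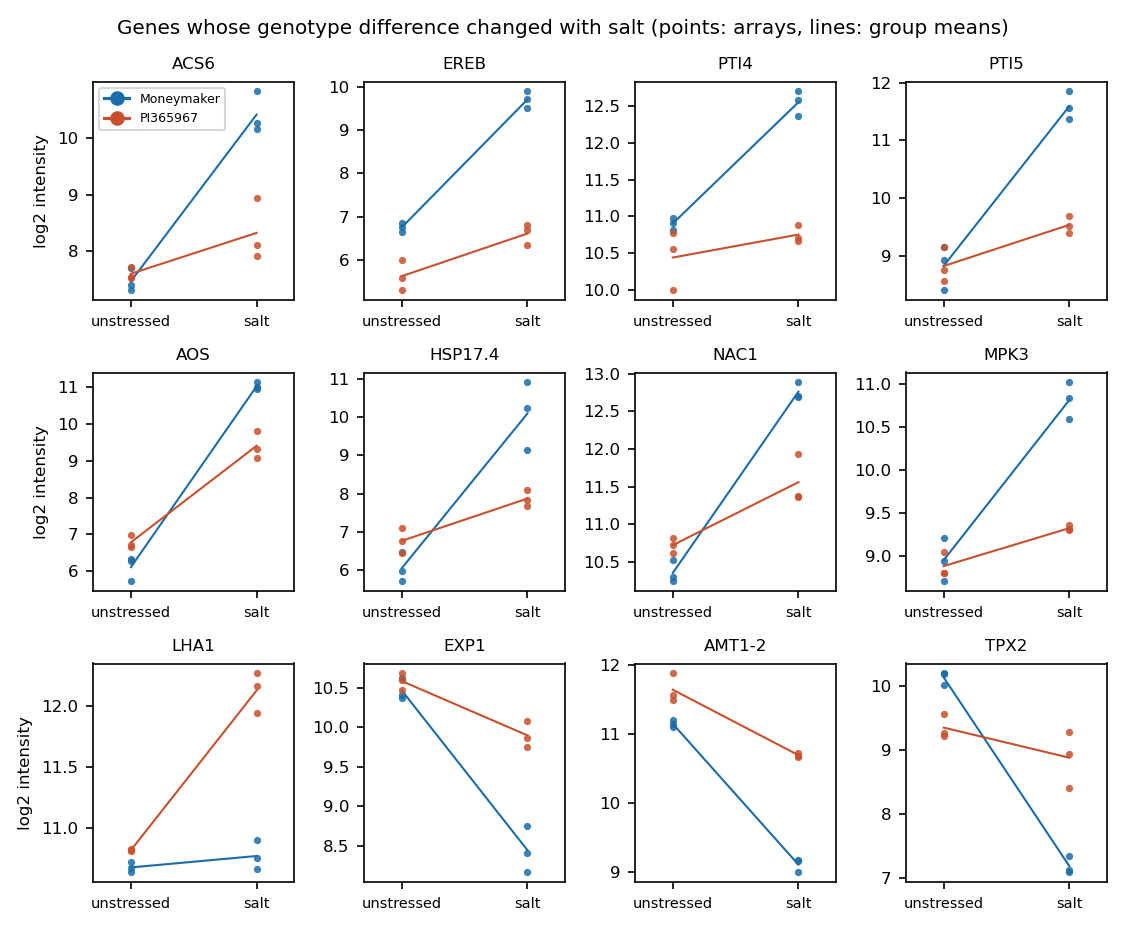
Normalized log2 intensity by array for 12 named genes whose difference of salt effects was called, without salt and under salt; points are arrays, lines join the group means of Moneymaker (blue) and PI365967 (orange), and the vertical axes differ between panels and do not start at 0. In ACS6, PTI5, AOS and MPK3 the Moneymaker points lie above those of PI365967 under salt, and in LHA1, EXP1, AMT1-2 and TPX2 they lie below.

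Heat shock proteins were split. HSP17.4, a small heat shock protein of the cytosol, read 10.91, 10.24 and 9.15 in salt stressed Moneymaker and 7.83, 8.10 and 7.68 in PI365967. The groups did not overlap, although the Moneymaker arrays were spread widely, and the difference was -2.23 ± 0.37 (adjusted p = 0.000439), against 0.72 without salt (adjusted p = 0.153). The difference of salt effects was -2.95 ± 0.52 (adjusted p = 0.00433). HSP21, a small heat shock protein of the chloroplast, and vis1 were on the other side with ER-SHSP, higher by 0.97 and 1.29 (adjusted p = 0.000307 and 0.00145), and all 3 were called higher without salt. Of 9 probe sets, 4 were called higher (44.4%) and 2 lower (22.2%), with a median of 0.37. The shares over all probe sets were 26.6% and 22.5%.

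Abscisic acid genes also pointed both ways. NCED1, the dioxygenase that limits abscisic acid synthesis under water deficit, read 12.50, 12.36 and 12.48 in salt stressed Moneymaker and 11.83, 11.64 and 11.99 in PI365967, bright in both. The difference was -0.63 ± 0.18 (adjusted p = 0.0143). It lost its call without PI365967 salt array 2 (adjusted p = 0.056), and in the authors' second set of log2 values the same arrays gave 0.02, of opposite sign. NSY, named as a neoxanthin synthase, was lower at 6.48, 6.71 and 6.47 in PI365967 against 7.61, 7.71 and 7.63 in Moneymaker (adjusted p = 5.16e-05), and ZEP, the zeaxanthin epoxidase upstream of it, was higher by 0.76 (adjusted p = 0.000273). Of the 7 probe sets 2 were called higher and 3 lower.

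Among 5 proteins induced by abscisic acid or water stress, LE16, a lipid transfer protein, was higher in PI365967 by 0.57 ± 0.10 (adjusted p = 0.000775), less than the 1.42 without salt (adjusted p of the gap = 0.00362). ER5 and LEA14, of the late embryogenesis abundant proteins, were lower, at -0.66 and -0.22 (adjusted p = 0.0201 and 0.0255), and each lost its call when any 1 of 4 salt arrays was left out (adjusted p up to 0.0661 for ER5 and 0.1003 for LEA14). The dehydrin TAS14, at -0.04, was not called (adjusted p = 0.841).

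Antioxidant and redox enzymes, which clear the hydrogen peroxide and superoxide formed under stress, had 11 of 26 probe sets higher and 2 lower under salt, with a median of 0.23, and 11 higher and 1 lower without salt. An ascorbate peroxidase, APX, read 8.96, 8.44 and 8.29 in PI365967 and 7.15, 7.35 and 6.96 in Moneymaker, a difference of 1.41 ± 0.19 (adjusted p = 9.46e-05). Other ascorbate peroxidase probe sets were not called, those of APX2 at 0.02 and 0.13 (adjusted p = 0.811 and 0.13) and APX1 at 0.05 (adjusted p = 0.705). APX2 was brighter than APX, at mean levels of 12.34 in PI365967 and 12.32 in Moneymaker under salt in its brighter probe set. DHAR1 and MDHAR, the reductases that recycle oxidized ascorbate, were higher by 0.89 and 0.80 (adjusted p = 0.000192 and 0.000247). GMP, whose product supplies ascorbate synthesis, was higher by 0.60 in its bright probe set (adjusted p = 9.66e-05) and not called in its dim one (0.14, adjusted p = 0.553). APX, DHAR1, MDHAR and GMP were each also called higher without salt, by 1.53, 0.50, 0.68 and 0.39.

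Carotenoid and isoprenoid genes had 10 of 23 probe sets higher and 5 lower. VDE, the violaxanthin de-epoxidase of the photoprotective xanthophyll cycle, was higher by 1.21 ± 0.14 (adjusted p = 4.75e-05). HMGR, the entry enzyme of the cytosolic mevalonate pathway, was lower, at -1.44 (adjusted p = 2.05e-05), more than without salt (adjusted p of the gap = 0.0193). Psy1, a phytoene synthase, was lower at -1.60 in its brightest probe set (adjusted p = 5.41e-06), while its other two were not called (adjusted p = 0.137 and 0.267), 1 of them with PI365967 at background. PSY2, a further phytoene synthase, went the other way, higher by 0.69 under salt (adjusted p = 0.00331) and by 0.50 without it (adjusted p = 0.0246).

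Solute genes had 8 of 33 probe sets higher and 6 lower, close to the shares over all probe sets. GolS-1, the galactinol synthase that starts the synthesis of raffinose sugars, read 11.38, 11.20 and 10.9974 in PI365967 and 10.23, 10.04 and 10.37 in Moneymaker. It was higher by 0.98 ± 0.27 (adjusted p = 0.0105), about as much as the 1.05 without salt. LIN8, an invertase, was higher by 1.22 (adjusted p = 4.34e-05) and HT2, a hexose transporter, lower, at -0.88 (adjusted p = 0.000174). LIN8 and HT2 were called in the same directions without salt, at 0.56 and -0.92. Of 6 probe sets for polyamine synthesis limma called 0 under salt, also at an unadjusted p under 0.05, with medians of 0.01 under salt and 0.33 without it, where 4 were called higher.

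In the hormone lists, ARF3, an auxin response factor, read 5.52, 5.90 and 5.73 in PI365967 and 7.91, 8.11 and 7.94 in Moneymaker in the brighter of its 2 probe sets. The 2 probe sets differed by -2.27 and -2.24 (adjusted p = 2.29e-08 and 1.15e-06) and were lower without salt too, while their differences of salt effects were 0.60 and -0.08 (adjusted p = 0.0187 and 0.849). IAA2 and IAA17, repressors of the auxin response, were lower, at -1.33 and -1.02 in their brighter probe sets (adjusted p = 0.00622 and 0.00559) and not called in their dimmer ones (-0.03 and -0.31, adjusted p = 0.896 and 0.486). The other IAA genes went both ways. IAA27 and IAA7 were lower in their brighter probe sets only, at -0.62 and -0.36 (adjusted p = 0.0043 and 0.0313). IAA3 was higher in both of its probe sets, at 0.57 and 0.69 (adjusted p = 0.015 and 0.026), and IAA16 was called in neither. ERABP1, named as an auxin-binding protein, was higher by 0.69 (adjusted p = 0.000777). Auxin response had 4 of 17 probe sets higher (23.5%) and 6 lower (35.3%), against 26.6% and 22.5% of all probe sets. Of 8 gibberellin probe sets 1 was higher (12.5%) and 2 lower (25%). For 20ox-3, a gibberellin oxidase, both genotypes were at background under salt, and for CPS Moneymaker was, so that neither has a fold here.

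In the cell cycle list, 1 of 13 probe sets was higher and 4 lower, and without salt 5 were higher and 3 lower. krp1 and krp2, inhibitors of cyclin-dependent kinases, were lower in PI365967, at -0.95 and -0.44 (adjusted p = 2.37e-06 and 0.00171), and CDKA1, a kinase of that kind, was lower at -0.22 (adjusted p = 0.035; 0.054 with the replicate number as a block). Without salt krp1, krp2 and CDKA1 were lower by more, at -1.07, -0.75 and -0.34, and their differences of salt effects were not called (adjusted p = 0.499, 0.143 and 0.557). CycA3, a cyclin, was higher by 0.40 (adjusted p = 0.0043). Light signalling had 3 of 10 probe sets higher (30%) and 2 lower (20%), close to the 26.6% and 22.5% of all probe sets. HY5, a transcription factor that promotes light-dependent development, was higher by 0.56 (adjusted p = 0.000244), and COP1, the ubiquitin ligase that removes it, lower at -0.48 (adjusted p = 0.00532). The blue light receptors CRY1A and CRY2 differed by 0.48 and -0.57 (adjusted p = 0.000988 and 4.94e-05).

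Among the smaller lists, ribosomal proteins had 2 of 7 probe sets lower, rpl38 at -1.25 and RPL37 at -0.38 (adjusted p = 5.47e-07 and 0.000955). Both were also called lower without salt, at -1.13 and -0.32. Of 7 probe sets for 14-3-3 proteins, tft4 was lower at -0.21 (adjusted p = 0.0186), a call that was lost with median centring (adjusted p = 0.089) and without Moneymaker salt array 1 or PI365967 salt array 1 (adjusted p = 0.054 and 0.051). Phenylpropanoid genes had 1 of 9 higher, CCR1 at 0.84 (adjusted p = 1.21e-05), and 1 lower, CHS2, a chalcone synthase of flavonoid synthesis, at -0.97 ± 0.22 (adjusted p = 0.00335). CHS2 differed by 0.10 without salt (adjusted p = 0.769).

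Metallothioneins show how far probe sets of 1 gene can part between these genotypes. MT4 has 4 probe sets. Les.4426.1.A1_s_at read 12.60, 12.47 and 12.58 in salt stressed Moneymaker and 4.79, 4.62 and 4.92 in PI365967, so that the genotypes differed by -7.78 ± 0.13 (adjusted p = 1.41e-11). These PI365967 levels lay within or below the range of the background limits, 4.76 to 5.39, so the size of that difference is not well measured. Les.4426.2.S1_s_at, the brightest, read 12.90, 13.10 and 13.09 and 13.31, 13.46 and 13.19, a difference of 0.29 ± 0.09 (adjusted p = 0.0213). The same gene was thus among the lowest and among the higher ones by the probe set read. The other 2 probe sets differed by -2.99 (adjusted p = 9.28e-10) and -0.28 (adjusted p = 0.173), and names ending in s_at or x_at mark probe sets that can bind more than 1 transcript. Of 57 genes with several probe sets, MT4 was the 1 with opposite calls, and 28 were called in some and not in others. The remaining 28 had the same outcome in all, which includes genes such as APX2 and IAA16 that were called in none. MTA and MT2, 2 further metallothioneins, were higher by 0.53 and 0.33 (adjusted p = 0.00296 and 0.0254). The MT2 call was lost when any 1 of 3 salt arrays was left out, and the MT4 call when either of 2 was (adjusted p up to 0.102 and 0.087). Without Moneymaker salt array 3, MT2 differed by 0.22.

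**Figure D5:**
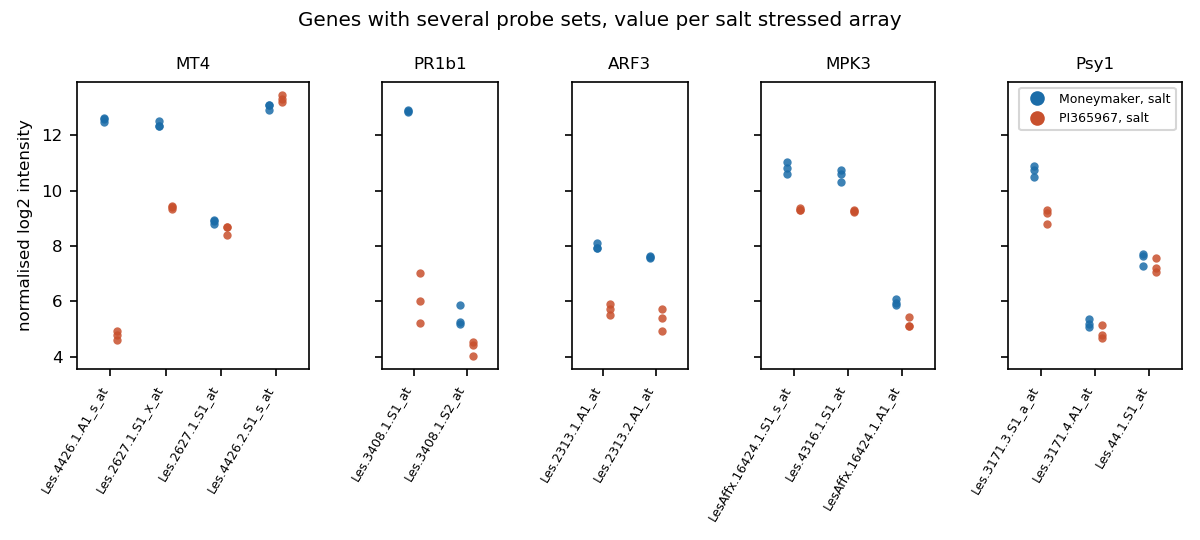
Normalized log2 intensity of each salt stressed array for every probe set of 5 genes with more than 1 probe set, Moneymaker in blue and PI365967 in orange. The probe sets of ARF3 and of MPK3 show differences in the same direction, whereas those of MT4 range from -7.78, with PI365967 near background, to 0.29.

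Among probe sets without a gene name, the 3 with the largest differences each way are given by their identifiers. Les.1842.1.S1_at read 9.85, 9.59 and 9.69 in salt stressed PI365967 and was at background in Moneymaker, where it read 4.05, 4.02 and 4.07, at least 24.7-fold higher. Les.5230.1.S1_at was at least 18.8-fold higher, also with Moneymaker at background, and Les.2469.1.S1_at was higher by 4.51. On the lower side Les.1207.1.A1_s_at read 12.74, 12.69 and 12.56 in Moneymaker and 5.96, 5.88 and 5.67 in PI365967, a difference of -6.83 ± 0.15. Les.5886.1.S1_at and Les.1243.1.A1_at were at background in PI365967, at least 51.9-fold and 52.5-fold lower. All 6 were called in the same direction without salt.

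Over the whole array, 38 probe sets were at background in all 3 PI365967 salt arrays and in no Moneymaker salt array, and 26 the other way round. Over all 12 arrays, 18 probe sets were at background in every PI365967 array and in no Moneymaker array, against 6 in the reverse. In the authors' second set of log2 values, where 4525 of the called probe sets were listed, 4401 (97.3%) had the same sign of difference under salt.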

How the data were processed

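The deposited series matrix holds one intensity per probe set and array on a linear scale; how the authors summarised probes into these intensity values is not given in the sources used here. Medians differed between arrays, and per the labels each array is one pool of plants. Log2 of the intensity plus 16 was quantile normalized over the 12 arrays, and 108 control probe sets were left out. A mean per group was fitted with limma 3.58.1 (lmFit, contrasts.fit, eBayes) in R 4.3.3, two-sided, with 8 residual degrees of freedom, and the 3 comparisons (genotypes under salt, genotypes without salt, and their difference) were each adjusted over all probe sets. The code was tested on simulated data. Array signal and the number of arrays limit the precision; no scan batch is named.

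The authors also deposited log2 values of the same arrays in one table per genotype, per the file headers on a log scale. Whether both tables were normalized together is not stated, so they gave a sign only, an alternative chosen after seeing the data. Other alternatives were normalization, offset, filters, the fit's prior, the arrays fitted, a replicate block and leaving out each array.

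Names came from the platform annotation, updated through RefSeq gene IDs. The symbol PRO1 covered 2 gene IDs, and the one with the synonym LePro1 is called by it and kept out of the solute list. The 24 genes with the largest differences, 12 each way, were named among called genes whose salt arrays did not overlap, and up to 4 called members per gene list were added. The probe set with the highest mean level stands for a gene, and others are given where they disagree. Named outside this rule, after their values were seen, were ACO6, AOX1a, CIP2a, E8, EIN2, ERF-H1, ERF3, GBF4, GLUII, gtsatom and JERF3. AO1, APX1, APX2, IAA3, IAA7, IAA16, IAA27, LHA2, LysRS, PSY2, SPE4, TAO3, TAS14, THM16, TIP, TSI-1 and XTH16 were named outside it in the same way. The comparison and all 25 lists were chosen with earlier results of these data known, and the lists for metallothioneins and light signalling were added when the annotation was read. Deviations of same-numbered unstressed samples of the 2 genotypes correlated at 0.116, 0.129 and 0.162, and those of differently numbered ones at -0.127 to 0.007. Between salt stressed and unstressed PI365967, same-numbered samples gave -0.034, -0.066 and -0.132, and a differently numbered pair reached 0.151. No shared source is stated, and whether samples of the same number belong together was not tested.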

Additional observations from a re-analysis of the deposited data

Results flagged for a closer look

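Of the 92 named genes, 31 had a genotype difference under salt that differed from that without salt. The test was limma's for the difference of salt effects (adjusted p under 0.05), which called 13.2% of all probe sets. The 92 genes were chosen for a called difference under salt, which is itself part of this test. The count of 31 therefore cannot be compared with the share over all probe sets. Values are the difference under salt minus that without salt, on the log2 scale. Among genes that stood higher in PI365967 relative to Moneymaker under salt than without it, TPX2 differed by 2.49, EXP5 by 1.47, CEVI57 by 1.35, EXP1 by 1.34, XET2 by 1.24, LHA1 by 1.21 and AMT1-2 by 1.09. Smaller values in that direction were found for Psy1 (0.86), PETE (0.83), ERABP1 (0.67), ARF3 (0.60), HY5 (0.58), Aqp2 (0.57), PSBP (0.46) and CCR1 (0.46). In CEVI57, and in the brightest probe set of Psy1 and of ARF3, PI365967 was below Moneymaker by less under salt than without it. The second ARF3 probe set differed by -0.08 (adjusted p = 0.849) and the other two of Psy1 by 0.33 and -0.32 (adjusted p = 0.433 and 0.458), none of them called.

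In the other direction the values were largest for HSP17.4 at -2.95, AOS at -2.29, ACS6 at -2.22, PTI5 at -2.05, EREB at -1.96 and 20ox-3 at -1.92. 20ox-3 was at background in both genotypes under salt, so its value rests on the unstressed arrays. NAC1 differed by -1.57, DGK1 by -1.46, MPK3 by -1.42, PTI4 by -1.34, WRKYIId-1 by -1.11 and CHS2 by -1.07. DREB3 followed at -0.99, HMGR at -0.91, LE16 at -0.85 and LCA1 at -0.62.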

How the results depend on the processing

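No named call under salt changed sign under any alternative fit. With no normalization between arrays, 1054 probe sets were higher and 966 lower under salt, and 2006 of the 4961 calls remained; without salt 297 were higher (135 and 606 at least 2-fold higher and lower), and the difference of salt effects had 176 higher and 116 lower. In that setting the median over all probe sets shifted to -0.22 without salt and 0.30 for the difference of salt effects, and 21 of the 92 named genes lost their call under salt, 20 of 65 their call without salt and 17 of 31 their call for the difference; without salt CycA3 and SOS2 also took the other sign, at -7e-04 and -0.04. Median centring gave 413 higher for the difference of salt effects, and an offset of 64 gave 181 at least 2-fold higher without salt.

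Leaving out each array gave 2345 to 2546 higher and 2017 to 2130 lower under salt, 403 to 455 and 512 to 579 of them at least 2-fold. Without salt it gave 1582 to 1813 and 1488 to 1716, with 251 to 313 and 365 to 390 at least 2-fold, and for the difference of salt effects 378 to 663 and 536 to 743. The lowest value, 378, came without Moneymaker unstressed replicate 1. Leaving out an array cost 10 named genes their call under salt: 20ox-3, CDKA1, CPS, ER5, LEA14, MT2, MT4, NCED1, NHX1 and tft4. Without salt it cost 7 of 65 theirs, AOS, CPS, CycA3, HMGR, PsbQ, SOS2 and XET2 (adjusted p up to 0.131), and median centring that of RPL37. For the difference of salt effects it cost Aqp2, CCR1, CEVI57, CHS2, ERABP1 and XET2 theirs, and median centring that of ARF3, Aqp2, CEVI57 and PSBP. The cause of these changes was not tested.

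In the salt groups, deviations of same-numbered samples correlated at -0.04, 0.064 and 0.037. With the replicate block 2647 were higher and 2241 lower under salt, 1900 and 1760 without salt, and 534 and 665 for the difference of salt effects. Among the named genes the block ended the calls of CDKA1 under salt, CPS without salt and CEVI57 for the difference, and added IAA2 without salt. In the authors' second log2 values NCED1 had the opposite sign, at 0.0235. Levels near background limit what dim probe sets can show: 487 were at background in all 12 arrays.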
